A study of Mus musculus with 3 samples.

Results

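The mesothelial gene set held 10 genes, which were 7 mesothelium-restricted genes (Msln, Muc16, Upk3b, Upk1b, Lrrn4, Gpm6a and Bnc1) and 3 simple keratins (Krt8, Krt18 and Krt19). The members were taken by gene name from all non-control probes of the array, which carried 34796 gene names in all, and they matched 11 probes. They were selected on their signals in these same 3 samples, mesothelium-restricted genes beside simple keratins, and the values below describe these samples and no difference was tested.

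The mesothelium is the single layer of flattened cells that covers the spleen and the other organs of the abdominal cavity and lines its wall. It secretes a lubricating film and takes part in the repair of the surface after injury. Its cells combine simple keratins, which they share with gut, duct and bladder epithelium, with surface proteins such as mesothelin and mucin 16 that few other tissues of the abdomen make in quantity.

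RNA came from spleens of male C57BL/6J mice that had been made diabetic with streptozotocin (STZ), a toxin that destroys pancreatic beta cells. All recipients received 25 syngeneic islets into the spleen, by needle puncture through the spleen surface, and 100 islets beneath the kidney capsule (SP25+KC100). Sample 1 was harvested immediately after transplantation on day 0 and Sample 2 on day 2. Sample 3 was harvested on day 139, from recipients that had undergone nephrectomy on day 100, by which the islets beneath the kidney capsule were taken out. The labels name the capsular graft among the characteristics of Sample 3 alone, whereas the methods give it for all 3 samples. The number of mice behind each array was not given, and the methods state a range of ages for the study but none for each sample, there was no spleen without a graft, and Sample 3 differed from the others in time and in the nephrectomy together.

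Each sample was hybridized to 1 array, and all 3 arrays lay on 1 slide. Well above background, the scanner's flag for a spot brighter than the empty parts of the array, were between 50.4% and 54.4% of the 55679 probes, and 32108 probes were so in at least 1 sample and are called detected. The spike-in controls, RNAs added in fixed amounts, gave signals in Sample 2 at 104% and in Sample 3 at 65.9% of those in Sample 1. Of 8 spleen genes 7 had a probe on the array, and all 7 were well above background in all 3 samples. These included Cd79a of B cells at signals of 4835, 7099 and 12454 and Spic of red pulp macrophages at 13171, 4011 and 9906 in Samples 1, 2 and 3. No separation of the layers of the spleen is described, so the arrays did not show where a transcript lay, and a change in the number of mesothelial cells could not be told apart from a change in RNA per cell.

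The sequences printed first are the probes of 2 keratins, because keratins are alike in sequence and a probe could take up RNA of more than 1 of them. Krt19 had 1 probe and Krt8 had 2, of which the upstream one is shown. Each is 60 bases long. Both are given 5′ to 3′.
Krt19 probe, mm9 chr11:100002392-100002451, minus strand: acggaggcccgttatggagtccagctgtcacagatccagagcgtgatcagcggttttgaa
Krt8 upstream probe, mm9 chr15:101828827-101828886, minus strand: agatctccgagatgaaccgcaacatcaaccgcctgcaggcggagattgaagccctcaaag
Laid base by base along the other keratin probes of the array without gaps, the Krt19 probe was closest to a probe of Krt85, with 25 of 60 bases alike. The Krt8 probe was closest to one of Krt24, with 30 of 60 bases alike. Probes of different genes can lie in different parts of their transcripts, and whole keratin transcripts were not compared. The match counts therefore do not show whether a probe took up RNA of another keratin, and binding was not tested. The brighter Krt8 probe, which gave the Krt8 values in the medians and calls below, was not compared.

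The promoters of some of the members that moved together are shown next, from 250 bases before to 50 bases after the start of the gene. The RefSeq promoter table used here (GRCm38.p6) held such a sequence for 7 of the 10 members, in 8 entries, since Gpm6a had 2 starts, and not for Msln, Upk1b and Krt19. The mesothelium-restricted genes Upk3b, Lrrn4 and Gpm6a were highest in Sample 3, and Krt8 and Krt18 were highest in Sample 2. Muc16 and Bnc1 were also highest in Sample 3, but their windows are not printed. Capitals mark CATTCC or its reverse complement GGAATG, the core letters bound by TEAD factors, and also GGGCGG, the GC box, and TATAAA, the TATA box, on either strand.
Upk3b, GRCm38.p6 chr5:136038246-136038545, plus strand: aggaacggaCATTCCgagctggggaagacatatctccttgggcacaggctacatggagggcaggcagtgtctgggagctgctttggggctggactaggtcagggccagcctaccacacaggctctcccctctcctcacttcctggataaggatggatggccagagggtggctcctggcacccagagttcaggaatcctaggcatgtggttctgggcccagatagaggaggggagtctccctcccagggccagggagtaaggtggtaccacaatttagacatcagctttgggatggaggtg
Lrrn4, GRCm38.p6 chr2:132880813-132881112, minus strand: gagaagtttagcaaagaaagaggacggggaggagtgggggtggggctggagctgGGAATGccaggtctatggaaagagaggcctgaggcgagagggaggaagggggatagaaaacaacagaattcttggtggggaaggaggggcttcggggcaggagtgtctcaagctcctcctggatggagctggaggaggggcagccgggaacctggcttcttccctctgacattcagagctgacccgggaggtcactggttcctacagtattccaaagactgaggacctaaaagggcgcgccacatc
Gpm6a, first start, GRCm38.p6 chr8:54779184-54779483, plus strand: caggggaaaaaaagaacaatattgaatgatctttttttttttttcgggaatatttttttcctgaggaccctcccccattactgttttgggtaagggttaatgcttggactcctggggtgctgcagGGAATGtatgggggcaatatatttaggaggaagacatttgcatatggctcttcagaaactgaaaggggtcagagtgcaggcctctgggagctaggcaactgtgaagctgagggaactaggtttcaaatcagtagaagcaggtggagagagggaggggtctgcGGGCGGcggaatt
Krt8, GRCm38.p6 chr15:102004293-102004592, minus strand: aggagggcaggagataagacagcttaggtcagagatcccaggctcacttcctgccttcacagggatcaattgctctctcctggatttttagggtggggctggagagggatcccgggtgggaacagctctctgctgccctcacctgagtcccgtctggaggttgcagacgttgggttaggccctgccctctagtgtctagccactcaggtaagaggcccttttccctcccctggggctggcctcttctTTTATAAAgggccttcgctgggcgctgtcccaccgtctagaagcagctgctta
Krt18, GRCm38.p6 chr15:102027966-102028265, plus strand: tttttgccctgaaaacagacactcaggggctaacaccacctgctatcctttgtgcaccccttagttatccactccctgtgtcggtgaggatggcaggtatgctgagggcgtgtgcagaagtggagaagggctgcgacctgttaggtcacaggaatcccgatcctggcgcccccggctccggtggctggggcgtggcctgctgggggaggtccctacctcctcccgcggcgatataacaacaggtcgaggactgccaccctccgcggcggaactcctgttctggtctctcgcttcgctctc
Counted from the start of the gene, CATTCC stood at position -241 in Upk3b, and GGAATG stood at -196 in Lrrn4 and at -125 in Gpm6a. The second Gpm6a entry, Bnc1 and Muc16 held no such letters, so that 3 of the 6 entries of mesothelium-restricted genes did, and the 3 printed here are those. The same letters occurred on either strand in 14.7% of 32851 promoter entries, and they were added to the search after the sequences had been read. In Krt8 the TATAAA matches on the 2 strands overlapped, and these letters were found in 13.6% of all entries. The Krt18 and Muc16 windows held none of the letters searched, which also included CCAAT (37.4% of all entries), TGACTCA (5.20%) and CACGTG (7.15%). Bnc1 had the window richest in G and C, at 83.3% against a median of 52.7% over all entries, and held GGGCGG, found in 35.7% of entries, at 6 places. A match gives letters only, and no binding was measured here.

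In Sample 1 only a part of the set was measurable. Of the 7 mesothelium-restricted genes, Msln and Muc16 were well above background on day 0. On day 2 this held for 6 genes, and on day 139 for all 7. The 3 keratins were well above background in all samples with their brighter probe. Signals are given below after quantile normalization, which gives every array the same distribution, in arbitrary units, and the probe positions are those of the mm9 build given by the array. No annotation of that build was used, so exons and introns are not assigned.

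Msln encodes mesothelin, a glycoprotein anchored in the cell membrane that binds mucin 16. Its signals were 96.4 in Sample 1, 390 in Sample 2 and 2283 in Sample 3 (probe at chr17:25885569-25885628). Each later sample was thus brighter than the one before, with ratios of 23.7 for Sample 3 over Sample 1 and 5.86 for Sample 3 over Sample 2. Muc16 encodes the partner mucin, a very large membrane-bound protein of the mesothelial glycocalyx. Its signals were 15.2, 52.2 and 362 in Samples 1, 2 and 3 (chr9:18299899-18299958), and the ratios were 23.9 for Sample 3 over Sample 1 and 6.93 for Sample 3 over Sample 2. The ratios of the 2 partners for Sample 3 over Sample 1 differed by less than the error the scanner software gives for their spots, which was 0.21 and 0.34 on the log2 scale.

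The uroplakins are membrane proteins best known from the plaques of bladder urothelium, and Upk3b and Upk1b are also made by mesothelium. Upk3b gave signals of 4.84, 45.5 and 459 in Samples 1, 2 and 3 (chr5:136520522-136520581), and the value in Sample 1 was not well above background. Against the lowest signal that was well above background in Sample 1, 12.9, it was at least 3.52-fold higher in Sample 2 and at least 35.5-fold higher in Sample 3. Between Samples 2 and 3, where it was measured in both, the ratio was 10.1, the highest of the members.

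Upk1b belongs to the tetraspanins, a family of proteins that cross the membrane repeatedly. Its signals were 3.77, 50.4 and 184 in Samples 1, 2 and 3 (chr16:38773859-38773918). Sample 1 was again not well above background, and the gene was at least 3.90-fold higher in Sample 2 and at least 14.2-fold higher in Sample 3. The ratio of Sample 3 over Sample 2 was 3.64. Upk1b was the member with replicate spots, 10 on each array, which showed the error of a single hybridization. Before normalization, 9 spots of Sample 1 without an outlier flag lay between 3.06 and 5.13, with a median of 3.59, and 0 of them were well above background. The 10 spots of Sample 2 lay between 43.6 and 62.4, with a median of 52.4 and a coefficient of variation of 12.7%. Those of Sample 3 lay between 154 and 181, with a median of 166 and a coefficient of variation of 4.97%. The spots of the 3 samples did not overlap, as the plot of the replicate spots shows, but they were spots of the same RNA and did not show how spleens differ from one another.

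**Figure D1:**
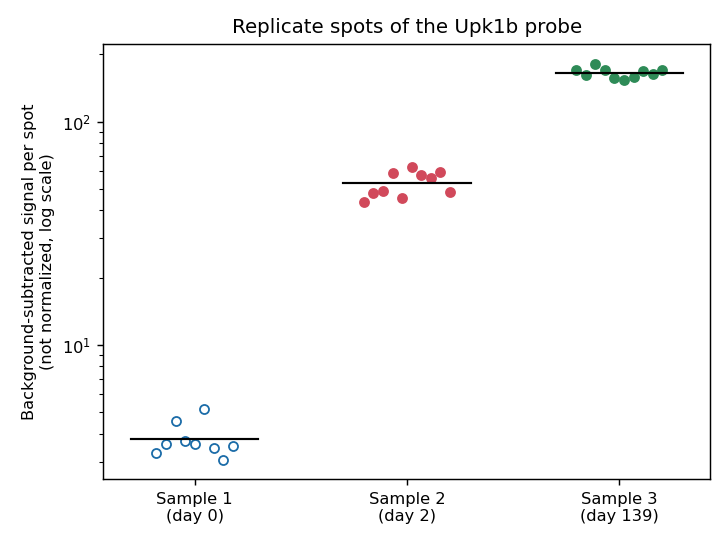
Background-subtracted signal of each spot of the Upk1b probe (log axis, before normalization) in Samples 1, 2 and 3. Points are spots, open where not well above background, and bars are their means. The spots lie between 3.06 and 5.13 on day 0, between 43.6 and 62.4 on day 2 and between 154 and 181 on day 139.

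Lrrn4, a leucine-rich repeat membrane protein, gave signals of 6.43, 52.3 and 196 in Samples 1, 2 and 3 (chr2:132694490-132694549). Sample 1 was not well above background, which made Sample 2 at least 4.04-fold and Sample 3 at least 15.2-fold higher. Gpm6a encodes a membrane glycoprotein of the proteolipid family that is abundant in neurons. Its signals were 9.85, 27.4 and 234 (chr8:56145539-56145598), also dim in Sample 1, so that Sample 2 was at least 2.12-fold and Sample 3 at least 18.1-fold higher. Between day 2 and day 139, where both genes were measured in both samples, the ratio was 8.55 for Gpm6a and 3.75 for Lrrn4.

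Bnc1 encodes basonuclin 1, a zinc finger transcription factor. Its signals were 3.66, 11.2 and 62.0 in Samples 1, 2 and 3 (chr7:89111978-89112037), of which that of Sample 3 alone was well above background. No fold is given between Samples 1 and 2. Sample 3 was at least 4.79-fold higher than Sample 1 and at least 4.42-fold higher than Sample 2.

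Krt8 and Krt18 ordered the samples in another way. They encode the paired type II and type I keratins that form the filaments of simple epithelium. Their genes are neighbors on chromosome 15, with no other coding gene between them in RefSeq. The brighter Krt8 probe (chr15:101827138-101827197) gave 88.2, 454 and 272 in Samples 1, 2 and 3. The upstream Krt8 probe gave 15.3, 166 and 99.6, of which the first was not well above background. Both probes were brightest in Sample 2, with ratios of Sample 3 over Sample 2 of 0.600 and 0.598. For Sample 2 over Sample 1 the brighter probe gave 5.15. The other gave 10.9, which rests on its own dim signal in Sample 1 and is no lower bound. Krt18 gave 131, 672 and 427 (chr15:101862341-101862400) and thus followed Krt8, with ratios of 5.12 for Sample 2 over Sample 1 and 0.635 for Sample 3 over Sample 2.

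Krt19 encodes a type I keratin of simple epithelia and mesothelium and lies in the type I cluster between Krt15 and Krt9. Its signals were 20.6, 170 and 486 in Samples 1, 2 and 3, all well above background. Unlike Krt8 and Krt18 it was brightest in Sample 3, with a ratio of 8.26 for Sample 2 over Sample 1, 23.6 for Sample 3 over Sample 1 and 2.85 for Sample 3 over Sample 2. Its ratio over day 0 on day 139 was thus near those of Msln and Muc16, at 23.7 and 23.9.

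**Figure D2:**
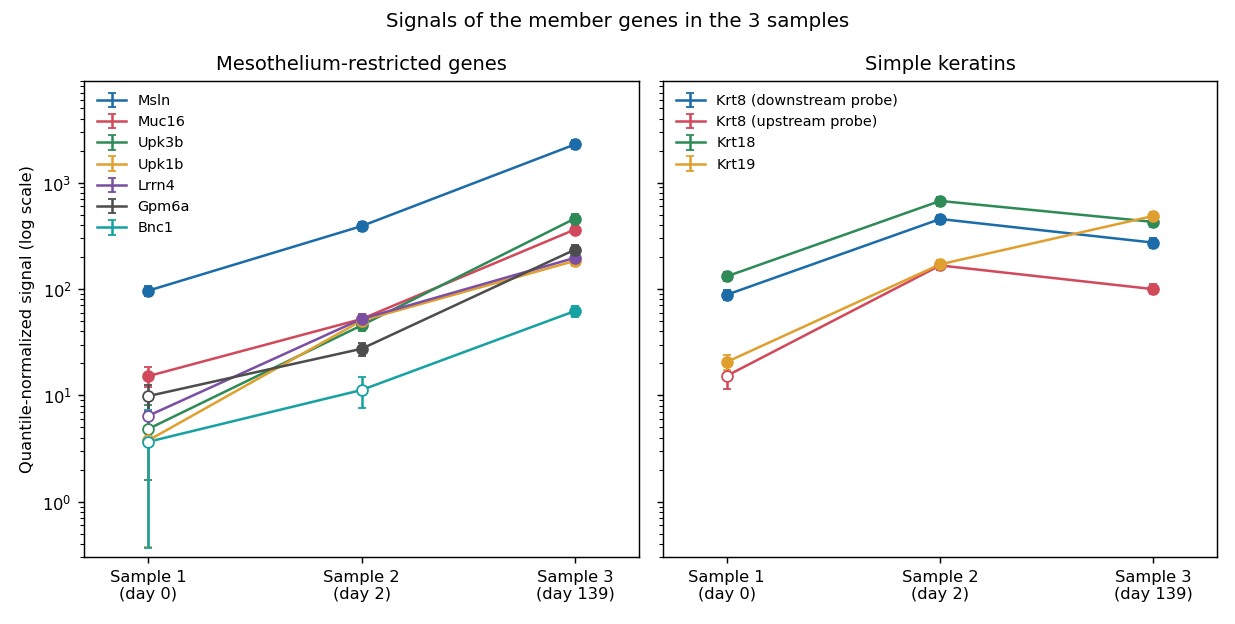
Quantile-normalized signal (log axis, arbitrary units) of the 11 member probes in Samples 1, 2 and 3. Filled points were well above background and open points were not, and bars are the error the scanner software gives for the spots, with the lower end cut short where the error is as large as the signal. The 7 mesothelium-restricted genes and Krt19 are highest in Sample 3, and Krt8 and Krt18 are highest in Sample 2.

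Genes were called regulated by the criteria of the study, a Z-score of at least 2 with a ratio of at least 1.5, or a Z-score of at most -2 with a ratio of at most 0.66. The methods give these limits but not how the Z-score was computed. Here it was the log2 ratio divided by the standard deviation of such ratios in a window of 1000 probes of similar mean signal. It thus places a gene among probes of like brightness on the same arrays and is not a test between conditions. By these criteria 9 of the 10 members were up-regulated in Sample 2 over Sample 1, all but Bnc1, where 1.91% of all detected probes were up-regulated and 2.55% down-regulated. In Sample 3 over Sample 1 all 10 were up-regulated, where 2.52% of all detected probes were up-regulated and 2.21% down-regulated. In Sample 3 over Sample 2 the count was 7 of 10, where 2.39% of all detected probes were up-regulated and 1.77% down-regulated. Nothing is read from these counts, since the members were chosen with these values known.

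The 3 members not called in Sample 3 over Sample 2 were Bnc1, Krt8 and Krt18. Bnc1 had a ratio above 1.5 and a Z-score of 1.99, just short of the limit. Krt8 and Krt18 lay below the ratio limit of 0.66, which 14.4% of all detected probes did, but their Z-scores were -1.38 and -0.97. For Sample 3 over Sample 1, the members well above background in both samples had Z-scores of 7.09 for Krt19, 6.93 for Msln, 6.02 for Muc16, 3.19 for Krt8 and 2.68 for Krt18.

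The median log2 ratio of the 7 mesothelium-restricted genes was 2.02 for Sample 2 over Sample 1, 4.58 for Sample 3 over Sample 1 and 2.55 for Sample 3 over Sample 2. For the 3 keratins it was 2.36, 1.70 and -0.66. Over all detected probes it was 0.01, -0.02 and -0.04. Within the mesothelium-restricted genes the log2 ratios ran from 1.48 to 3.74 on day 2 over day 0, from 4.08 to 6.57 on day 139 over day 0 and from 1.87 to 3.34 on day 139 over day 2. These medians use the measured signals of the 5 genes that were not well above background in Sample 1. With signals raised to the lowest one well above background on each array they were 1.81, 4.18 and 2.55. With a normexp background correction, which shrinks the ratios of dim probes, they were 0.62, 2.09 and 1.80, and Muc16, Upk3b and Gpm6a were no longer called for Sample 2 over Sample 1.

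**Figure D3:**
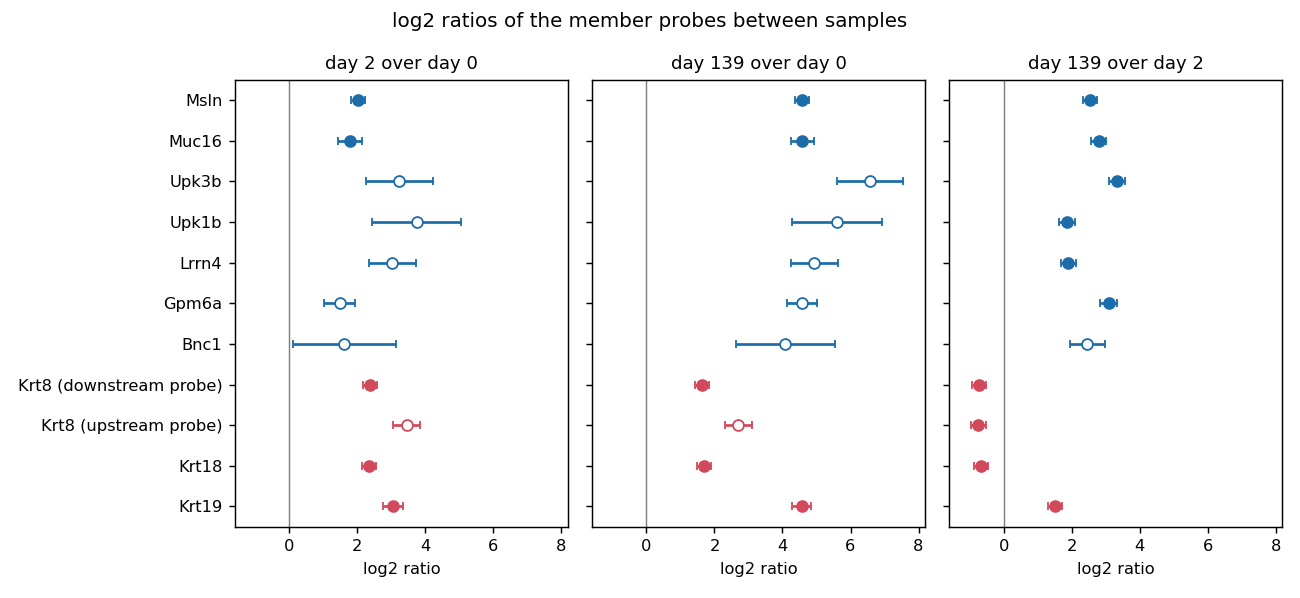
log2 ratios of the 11 member probes for Sample 2 over Sample 1, Sample 3 over Sample 1 and Sample 3 over Sample 2. Blue marks mesothelium-restricted genes and red marks keratins, open points had a sample that was not well above background, and bars are the error the scanner software gives for the spots. In the panel for day 139 over day 2 the 3 probes of Krt8 and Krt18 lie below 0 and the other 8 lie above it.

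**Figure D4:**
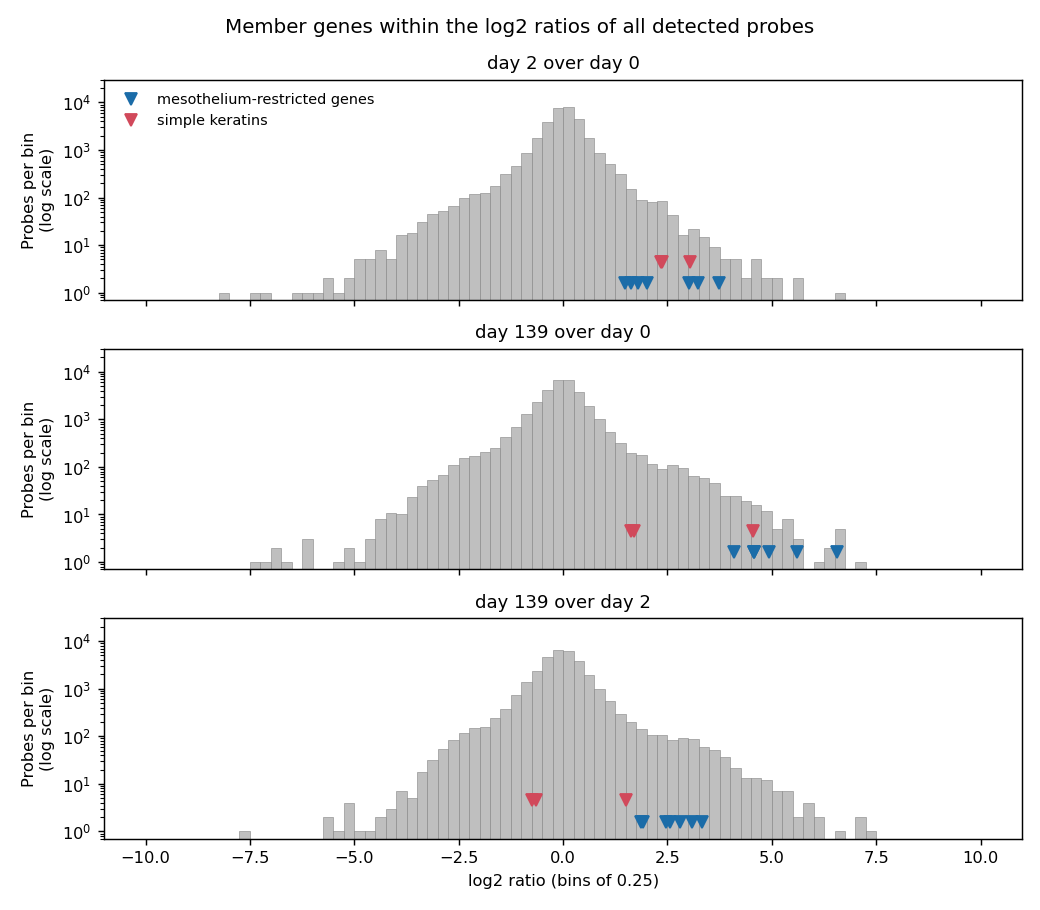
Number of detected probes (log axis) in each log2 ratio bin of 0.25, gray, with the brightest probe of each member as a triangle, whose height has no meaning. Blue marks mesothelium-restricted genes and red marks keratins. For day 139 over day 0 the blue triangles lie between 4.08 and 6.57, where few probes lie, and for day 139 over day 2 the triangles of Krt8 and Krt18 lie left of 0.

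Other genes known from mesothelium were followed as a list of 16, of which 15 were detected, while Calb2, which encodes calretinin, was not. In Sample 3 over Sample 1, 10 of them were up-regulated and 1 was down-regulated, with a median log2 ratio of 1.88. In Sample 2 over Sample 1, 4 were up-regulated (Nkain4, Rspo1, Anxa8 and Pdpn), with a median of 0.30. In Sample 3 over Sample 2, 8 were up-regulated and 1 was down-regulated, with a median of 1.48.

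Nkain4, a membrane protein that interacts with the sodium pump, gave 21.1, 61.2 and 340 in Samples 1, 2 and 3. Rspo1, a secreted enhancer of Wnt signaling, gave 283, 595 and 1877. Anxa8, an annexin, gave 41.4, 193 and 540. These genes were brighter in each later sample, as Msln and Muc16 were. Pdpn, a mucin-type membrane protein that stromal cells of the spleen also make, gave 181, 443 and 507, so that its difference lay between day 0 and day 2.

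A further group passed the criteria for Sample 3 over Sample 1 but not for Sample 2 over Sample 1. Igfbp6, a binding protein of insulin-like growth factors, gave 960, 724 and 5008 in Samples 1, 2 and 3. Efemp1, a matrix protein, gave 175, 223 and 900. Aldh1a2, an enzyme of retinoic acid synthesis, gave 88.5, 90.3 and 256, and Cldn15, a tight junction protein, gave 67.4, 83.0 and 312. Igfbp5 and Sulf1 belonged to the same group, with ratios over Sample 1 of 7.48 and 3.67. Prg4, which encodes the lubricant lubricin, went the other way, with 906, 906 and 250. Wt1, Slpi, Ezr and Bcam passed the criteria in none of the comparisons. Wt1, a transcription factor of both mesothelium and spleen stroma, gave 1492, 1443 and 1057.

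**Figure D5:**
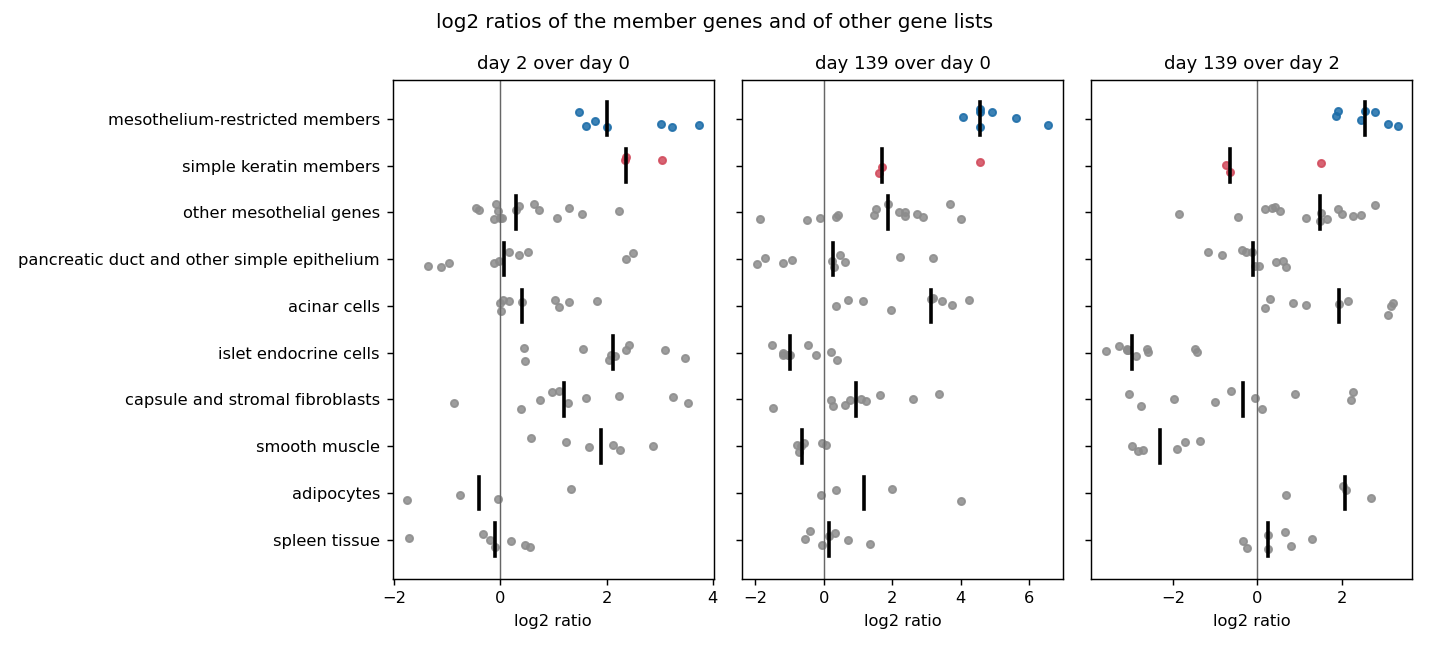
log2 ratios of the detected genes of each list (points, brightest probe of each gene) for Sample 2 over Sample 1, Sample 3 over Sample 1 and Sample 3 over Sample 2, with the median of the list as a black bar. Vertical jitter has no meaning. For day 139 over day 2 the medians of the mesothelium-restricted genes, the other mesothelial genes, the acinar genes and the adipocyte genes lie at 1.48 or above, and those of the islet and smooth muscle genes lie at -2.30 or below. Of the 9 acinar genes 4 were well above background in both of these samples, with a median of 0.73. With the normexp correction the medians were 1.80 for the mesothelium-restricted genes and 1.06 for the other mesothelial genes. Those of the acinar and adipocyte genes were then 0.61 and 0.82.

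Keratins and their like are also made by pancreatic ducts and other simple epithelium. Of 14 genes of such epithelium 10 were detected, and the duct factor Sox9 as well as Muc1 and Elf3 were well above background in no sample. The summed signal of the 10 was 634, 754 and 716 in Samples 1, 2 and 3. Krt7, a simple keratin that mesothelium shares, was the 1 gene of the list that was up-regulated over day 0, with 19.5, 111 and 177. Cdh1, the adhesion protein of most epithelia, gave 80.7, 37.2 and 20.7, lay too near background in Sample 3 to be flagged as above it and was down-regulated there against Sample 1. The chloride channel gene Cftr gave 144, 143 and 63.1.

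Among the other 49 keratin genes, 19 were detected. Krt7 and Krt42 were up-regulated in Sample 2 and in Sample 3 over Sample 1, and Krt20 in Sample 3 over Sample 2. Krt42 gave 13.6, 52.1 and 128, of which Sample 1 was not well above background, and Krt20 gave 23.7, 19.9 and 69.8. The median log2 ratios of the 19 were 0.19, 0.30 and 0.22 in the 3 comparisons. Of 6 keratins of stratified epithelium 3 were detected, and 0 were called. Among 14 relatives of the members 9 were detected, and besides Krt7 and Krt20 only Lrrn3, a relative of Lrrn4, was called, for Sample 3 over Sample 1, with 190, 384 and 502.

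Some markers of other tissues moved with the mesothelium-restricted genes on day 139, and their part in these values was not tested. Of 10 acinar genes, which encode the digestive enzymes of the exocrine pancreas, 9 were detected, with summed signals of 226, 301 and 925 in Samples 1, 2 and 3. The amylase gene Amy2a5 gave 21.3, 43.4 and 404. The carboxypeptidase genes Cpa1 and Cpb1 were well above background in Sample 3 alone, at 63.6 and 60.1, and were at least 4.92-fold and at least 4.64-fold higher there than in Sample 1. These 3 genes were the only ones of the 9 that were up-regulated in Sample 3 over Sample 1. Ctrb1 gave 51.4, 51.3 and 115, Cel gave 45.3, 59.7 and 73.9, and Clps gave 82.5, 92.8 and 105. Ctrb1, Cel and Clps were well above background in all samples and were not called. Prss2, Pnlip and Cela3b were well above background in Sample 3 alone, at 47.7, 29.0 and 27.0, and were not called either. All 9 detected acinar genes were higher in Sample 3 than in Sample 1 and in Sample 2. With signals raised to the lowest one well above background, 6 of the 9 were up-regulated in Sample 3 over Sample 1. Of 5 adipocyte genes 4 were detected, with summed signals of 1395, 807 and 1482. Most of each sum came from Fabp4. All 4 genes were brighter on day 139 than on day 2, by a median log2 ratio of 2.07. The normexp correction brought this median to 0.82. Against day 0 the genes were split, with 1 brighter and 3 dimmer on day 2, and 3 brighter and 1 dimmer on day 139. Adipoq, which encodes adiponectin, gave 21.9, 21.2 and 87.0, and Cidec, a lipid droplet protein, was well above background in Sample 3 alone, at 59.6. The fatty acid binding protein gene Fabp4 gave 1260, 744 and 1195, and Retn, for resistin, gave 110, 32.5 and 141.

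The matrix genes Dcn and Lum of fibroblasts shared the direction. Dcn, for decorin, gave 1585, 2067 and 9670 in Samples 1, 2 and 3. Lum, for lumican, gave 17.3, 37.5 and 180. The list of 10 fibroblast genes did not move as 1 group, since Col1a1, Col1a2 and Col3a1, which encode chains of fibrillar collagens, were highest in Sample 2. Col1a1 gave 1179, 11182 and 1361. Pdgfra, a growth factor receptor of fibroblasts, was lower in each later sample, with 1189, 649 and 422, and was down-regulated in both over Sample 1.

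Islet and smooth muscle markers were, like Krt8 and Krt18, highest on day 2, and their part in the keratin values was not tested either. All 10 islet endocrine genes were detected. In Sample 2 over Sample 1, 8 of them were up-regulated, with a median log2 ratio of 2.12, and in Sample 3 over Sample 2 all 10 were down-regulated, with a median of -2.97. Chgb, which encodes a secretory granule protein, gave 250, 2783 and 327 in Samples 1, 2 and 3. Of 6 smooth muscle genes, 5 were up-regulated in Sample 2 over Sample 1 and 6 were down-regulated in Sample 3 over Sample 2. Acta2, which encodes smooth muscle actin, gave 3364, 24804 and 3500. In Sample 3 over Sample 1, Krt8 and Krt18 were up-regulated, with ratios of 3.09 and 3.25. Of the islet genes 0 and of the smooth muscle genes 0 were up-regulated there, as were 2.52% of all detected probes. The median log2 ratios of these 2 lists were -0.99 and -0.62. Higher in Sample 3 than in Sample 1 were 2 of the 10 islet genes and 1 of the 6 smooth muscle genes. Islet cells also make Krt8 and Krt18, and the arrays did not separate their share from that of other cells.

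The 5 entries whose pattern over the 3 samples was most like that of Msln and Muc16, the mesothelium-restricted genes well above background in all samples, were found among the other probes with the same property. Likeness was the root mean square distance between log2 signals, each centered on its own mean over the 3 samples. Nkain4 was nearest, at a distance of 0.23, and Amy2a5 was next, at 0.36. Then came an entry at 0.43, Lum at 0.50 and a last entry at 0.50. The entries before and after Lum carried a transcript accession in place of a gene symbol and are not named. In Samples 1, 2 and 3 the first of these gave 9301, 16809 and 136468, and the last gave 6872, 11388 and 87444.5. Both were brighter than Msln and Muc16 in each sample. With 3 samples a distance rests on few values.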

How the data were processed

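The authors deposited the scanner output of 3 one-color SurePrint G3 Mouse 8x60K arrays, 1 per condition, with the background-subtracted intensity of each spot on a linear scale. The file header names Feature Extraction 10.7.1.1, while the methods and the submitters' processing notes give 9.5.1.1, and the methods and the labels name different RNA and labeling kits. The authors also deposited a table of quantile-normalized intensity values, which was used as an alternative.

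Controls and spots with an outlier flag were dropped and the remaining spots averaged per probe. Quantile normalization was run over the 55679 probes of the 3 arrays, values under 1 were set to 1, and log2 was taken. A gene took the value of its brightest detected probe. With 1 array per condition no p-value was computed, and the number of arrays limits the precision. Saturated spots numbered 0. Where a sample was not well above background, a bound is given against the lowest signal well above background on that array. Where its own signal was higher than that, as for the upstream Krt8 probe, the plain ratio is given.

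The members, the gene lists (written from general knowledge), the criteria and the alternatives were chosen with earlier results of these data known. Besides the members, the genes open to naming were those of each list that passed the criteria or had the largest ratios measured in both samples, and the 5 nearest in pattern. The text names a part of them and, chosen after their values were seen, genes that account for a list.

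The alternatives were scaling by spike-in signals, or by the 75th percentile of each array, a normexp correction in limma 3.58.1 and R 4.3.3 (offset 50), the deposited table, signals raised to the lowest one well above background, detection in both samples, no detection filter, outlier spots kept, the mean over the probes of a gene, a median absolute deviation in the Z-score and a window of 250 probes. The calls were checked on simulated data. Other calculations used Python 3.11.15, numpy 2.4.6 and pandas 2.3.3. The mm9 positions are those of the array, no genome of that build was used, and no position was carried over to GRCm38.p6.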

Additional observations from a re-analysis of the deposited data

How the results depend on the processing

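With 1 array per condition, differences between spleens could not be separated from differences between times, and signals near background in Sample 1 limited the ratios over day 0. Of the 11 alternatives, 9 gave ratios, and under these no median of the mesothelium-restricted genes or of the keratins and no ratio of a member changed direction. With the normexp correction the median log2 ratio of the mesothelium-restricted genes was 0.62 for Sample 2 over Sample 1, 2.09 for Sample 3 over Sample 1 and 1.80 for Sample 3 over Sample 2, and that of the keratins was 1.82 and 1.31 in the first and second of these. Spike-in scaling moved the median of all probes to 0.35 for Sample 3 over Sample 1 and to 0.40 for Sample 3 over Sample 2. It also turned the medians for Sample 3 over Sample 2 of the fibroblast list, from -0.33 to 0.10, and of the list of duct and other simple epithelium, from -0.10 to 0.33. The keratin medians there were 2.08 and -0.21, and that of the mesothelium-restricted genes for Sample 3 over Sample 2 was 3.00. With the mean over the probes of a gene, the keratin medians were 2.91 for Sample 2 over Sample 1 and 2.17 for Sample 3 over Sample 1. Where detection in both samples was required, 5 members could be measured over day 0 and 5 were called in each of the comparisons with Sample 1, since the other 5 were not well above background there. Otherwise 6 to 9 members were called for Sample 2 over Sample 1, 10 for Sample 3 over Sample 1 and 7 or 8 for Sample 3 over Sample 2, where Bnc1 was the gene added. Of 259 values of single members under the alternatives, 48 moved by more than the scanner error and 0 reversed. Over all probes, 613 up-regulated and 819 down-regulated calls for Sample 2 over Sample 1 became 1349 and 1564 with the median absolute deviation and 985 and 1276 without a detection filter. For Sample 3 over Sample 1 the 808 and 709 calls became 1699 and 1738 with the median absolute deviation, 1506 and 385 with spike-in scaling and 1238 and 609 with the floor. For Sample 3 over Sample 2 the 767 and 569 calls became 1484 and 1518, 1632 and 274, and 1162 and 481 in the same order. No paired analysis was possible because each condition had 1 array. The causes of these changes were not tested.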
